A study of Mus musculus with 17 samples.

Results

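The genes described here encode the nuclear-made subunits of the mitochondrial respiratory chain and ATP synthase. They were taken by name from the protein-coding genes of the mouse: symbols that start with Nduf followed by a, b, c, s or v and a number (complex I), Sdha to Sdhd (complex II), Uqcr (complex III), Cox4 to Cox8 (complex IV) and Atp5 (complex V). No measured difference was used to choose them. The pattern matched 83 symbols, and 80 of them had at least 10 fragments in at least 3 of the 17 libraries, out of 41126 genes in the tables. These 80 were 36 genes of complex I, 4 of complex II, 8 of complex III, 15 of complex IV and 17 of complex V. The 3 left out were Cox6b2, with at most 9 fragments in any library, Cox7b2, with at most 3, and Cox8c, with 0. The least counted gene kept, Cox4i2, had a median of 74.0 fragments. The symbol pattern also takes Ndufa4, which is now known as a subunit of complex IV, and Atp5s, known as coupling factor B, and it misses Ndufab1 and Cyc1, whose products are subunits of complexes I and III.

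The respiratory chain passes electrons from NADH (at complex I) and succinate (at complex II) through complexes III and IV to oxygen, and pumps protons that complex V uses to make ATP. Heart muscle relies on it for nearly all of its ATP, and its subunit genes are among the most strongly transcribed in that tissue. Complex IV, cytochrome c oxidase, has small nuclear subunits that exist as a striated muscle form and a widely expressed form: Cox6a2, Cox7a1 and Cox8b are the muscle forms, and Cox6a1, Cox7a2 and Cox8a the widely expressed ones.

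RNA was sequenced from whole hearts of C57BL/6 mice, harvested at about zeitgeber hour 10, that is 10 h after lights on. The groups were hearts 6 weeks after transverse aortic constriction (TAC, a surgical narrowing of the aorta that loads the heart with pressure) with daily SR9009 (n = 3) or vehicle (n = 3), hearts 1 week after TAC with daily SR9009 (n = 4) or vehicle (n = 4), and Control hearts (n = 3). SR9009 is an agonist of the REV-ERB nuclear receptors, which are repressors in the circadian clock. All mice were on normal chow with 12 h of light and 12 h of dark. The labels give no dose, age or sex, no week for Control, and no statement that Control mice had sham surgery or vehicle or that each library is a separate animal. P-values therefore measure the spread between these libraries, which may be technical, and TAC cannot be told apart from surgery, age or batch in the comparisons with Control.

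The promoters of the complex IV isoform genes are shown because the clearest differences below lie between them. Each run is the 250 bases before to 50 bases after the RefSeq gene start (GRCm38.p6), 5′ to 3′ on the gene's own strand. Capitals mark exact matches, on either strand, to GCGCATGC (the core of the site of NRF1, a factor known to bind respiratory gene promoters) or CCGGAAG (the core of the site of GABPA, also called NRF2). Where both strands match in one place the run of capitals is longer than the motif. The promoter of Cox6a2 was not used here.
Cox7a1, chr7:30183921-30184220, plus strand: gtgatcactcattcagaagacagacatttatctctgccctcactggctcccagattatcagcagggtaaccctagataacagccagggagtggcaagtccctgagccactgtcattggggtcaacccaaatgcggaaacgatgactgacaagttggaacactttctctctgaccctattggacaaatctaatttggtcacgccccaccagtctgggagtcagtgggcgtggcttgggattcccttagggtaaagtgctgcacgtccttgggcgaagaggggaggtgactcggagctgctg
Cox8b, chr7:140900397-140900696, minus strand: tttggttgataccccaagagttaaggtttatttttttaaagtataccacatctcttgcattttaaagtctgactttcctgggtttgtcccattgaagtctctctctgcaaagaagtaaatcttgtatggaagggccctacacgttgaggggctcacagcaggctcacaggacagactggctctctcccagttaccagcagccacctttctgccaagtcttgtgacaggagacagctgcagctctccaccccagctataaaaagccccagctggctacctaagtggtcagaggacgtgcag
Cox7a2, chr9:79759804-79760103, minus strand: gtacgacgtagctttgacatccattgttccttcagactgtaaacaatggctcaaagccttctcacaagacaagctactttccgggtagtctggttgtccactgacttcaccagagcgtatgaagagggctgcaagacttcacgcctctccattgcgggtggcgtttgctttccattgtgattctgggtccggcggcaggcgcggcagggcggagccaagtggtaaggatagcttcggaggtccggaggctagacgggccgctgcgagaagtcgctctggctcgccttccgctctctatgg
Cox8a, chr19:7217567-7217866, minus strand: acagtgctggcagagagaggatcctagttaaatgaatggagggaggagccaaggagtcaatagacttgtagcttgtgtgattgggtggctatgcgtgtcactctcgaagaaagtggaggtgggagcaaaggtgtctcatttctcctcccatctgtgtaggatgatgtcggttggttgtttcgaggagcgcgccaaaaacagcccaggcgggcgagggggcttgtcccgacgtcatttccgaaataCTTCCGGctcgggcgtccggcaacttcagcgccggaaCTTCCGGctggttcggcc
Cox6a1, chr5:115348909-115349208, minus strand: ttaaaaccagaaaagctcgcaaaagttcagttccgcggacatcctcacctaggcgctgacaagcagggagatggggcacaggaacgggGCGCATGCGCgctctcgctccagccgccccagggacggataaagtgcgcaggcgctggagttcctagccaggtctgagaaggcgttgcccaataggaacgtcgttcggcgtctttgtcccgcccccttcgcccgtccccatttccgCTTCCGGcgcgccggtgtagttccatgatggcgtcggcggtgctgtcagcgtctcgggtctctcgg
The windows of the muscle forms Cox7a1 and Cox8b held no match, and neither did that of Cox7a2, while that of Cox8a held 2 matches to CCGGAAG and that of Cox6a1 held 3 matches in all. Of the 66 subunit genes with a promoter in the RefSeq table, 10 (15.2%) held GCGCATGC, against 2.8% of all 27025 promoters of that length, and 15 (22.7%) held CCGGAAG, against 9.1%. The core AAGATGGC of the factor YY1 was in 9 (13.6%, against 2.9%), and the core AAGGTCA of the site of the estrogen-related receptors in 8 (12.1%, against 4.7%). The muscle factor motif MEF2, searched as its usual 10-letter site by name, was in 0 of 66, against 3.3% of all promoters. A match describes the letters only and was not tested as a site.

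Library totals ran from 8474410 to 15498251 fragments, and the 80 subunit genes held 3.29% to 4.46% of them. Levels are given as CPM, the fragment count scaled to a common library total with the TMM method. Totals were 13075294 to 15498251 in TAC 6 week vehicle, against 9452683 to 9901201 in Control, so depth and group did not overlap there. The cardiomyocyte markers Tnnt2, Tnni3, Actn2, Myl2, Myl3, Mybpc3, Ryr2 and Pln were abundant in every library. Of the fat markers, Adipoq, Plin1, Lep, Ucp1 and Elovl3 were at 0 in 8, 11, 14, 15 and 17 of the 17 libraries and reached at most 0.545 CPM, while Cidea, which heart also expresses, was at 20.2 to 30.7 CPM. Of the 5 skeletal muscle markers Myh4, Myh1 and Mylpf reached at most 0.856 CPM, while Acta1 (90.8 to 4900 CPM) and Ckm (1060 to 1680 CPM), which heart also expresses, were found in every library. That list summed to 2750 to 3220 CPM in TAC 6 week SR9009, 4290 to 6310 CPM in TAC 6 week vehicle, 2460 to 3320 CPM in TAC 1 week SR9009, 2440 to 3410 CPM in TAC 1 week vehicle and 1540 to 1610 CPM in Control, and its part in the results below was not tested. Clock genes set some libraries apart from others of their group at the shared hour of harvest. Arntl, the partner of CLOCK, stood at 42.8 CPM in TAC 6 week vehicle 1 and 3.57 and 2.72 CPM in the other 2 libraries of that group, and at 16.3 CPM in Control 2 and 8.53 and 8.59 CPM in the other Control libraries. TAC 1 week SR9009 2 was not apart in Arntl (7.87 CPM, within 7.87 to 13.1 CPM in its group), but it was the lowest of all 17 libraries for 78 of the 80 subunit genes. At 1 week Arntl did not overlap between SR9009 (7.87 to 13.1 CPM) and vehicle (13.6 to 22.5 CPM). Results below are therefore also given with 3 libraries left out together (TAC 6 week vehicle 1, Control 2 and TAC 1 week SR9009 2) where that changes a call. TAC 1 week SR9009 2 stood apart by the levels of the subunit genes themselves, and leaving it out changes their spread in the shared fit. Calls in that setting are therefore no independent support.

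In Control hearts the levels differed by far between subunits. Per kilobase of exon, the highest were the complex V genes Atp5a1 and Atp5b (the alpha and beta subunits of the catalytic head), with 1668 and 1269 CPM per kb, followed by the 3 muscle forms of complex IV, Cox7a1 (1260 CPM per kb), Cox6a2 (1225 CPM per kb) and Cox8b (1107 CPM per kb). Their widely expressed partners were lower on the same scale: Cox7a2 at 360.2 CPM per kb, Cox8a at 127.6 CPM per kb and Cox6a1 at 66.2 CPM per kb. The lowest were Cox4i2, the form of subunit 4 known from lung, at 8.35 CPM per kb against 818 CPM per kb for its paralog Cox4i1, and Atp5s (10.2 CPM per kb). Among the 3 genes for the c-ring of ATP synthase, Atp5g3 (433 CPM per kb) stood above Atp5g1 (139.6 CPM per kb) and Atp5g2 (26 CPM per kb). The length used counts all annotated exons, 2181 bases for Atp5g3 and 4912 for Atp5g1. Before division by length Atp5g3 and Atp5g1 lay closer, at 944 and 686 CPM. Atp5g1 and Atp5g2 share stretches of at least 95% identity with transcripts of 19 and 1 other genes, so their split is uncertain. By the authors' deposited FPKM the highest and lowest subunits in Control were Ndufa4 and Ndufa11 in complex I, Sdhc and Sdhd in complex II, Uqcrq and Uqcrfs1 in complex III, Cox4i1 and Cox4i2 in complex IV and Atp5b and Atp5s in complex V. By CPM per kb the named genes of complexes II and III stood the other way round. Sdhc and Sdhd had 130.5 and 369 CPM per kb, and Uqcrq and Uqcrfs1 had 142 and 524 CPM per kb. The highest on that scale were Sdha (391 CPM per kb) in complex II and Uqcr11 (637 CPM per kb) in complex III. In complex I the extremes were Ndufb9 (494.5 CPM per kb) and Ndufb2 (24.7 CPM per kb).

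At 1 week after TAC, subunit RNA of all 5 complexes was lower on average than in Control. The summed level of the 80 genes was 38818, 42566, 37197 and 35974 CPM in TAC 1 week vehicle libraries, against 43874, 43415 and 43229 CPM in Control libraries. All 4 TAC sums lay below the Control range, TAC 1 week vehicle 2 by the least. As a share of the Control mean, the mean sum was 83.3% for complex II, 87.0% for complex V, 87.7% for complex IV, 91.3% for complex I and 95% for complex III. Abundant genes weigh most in these sums: in Control, Atp5a1 and Atp5b averaged 5231 and 5377 CPM of 17486 CPM for complex V. The median log2 fold changes of complexes II, V, IV, I and III were -0.241, -0.094, -0.109, -0.101 and -0.068, so by gene complex V was not lower than complex I. Of the 80 fold changes, 68 were below 0, with a median log2 fold change of -0.10, against -0.004 for all 15931 genes tested. In whole tissue, fewer cardiomyocytes and less of these RNAs per cardiomyocyte cannot be told apart.

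**Figure D1:**
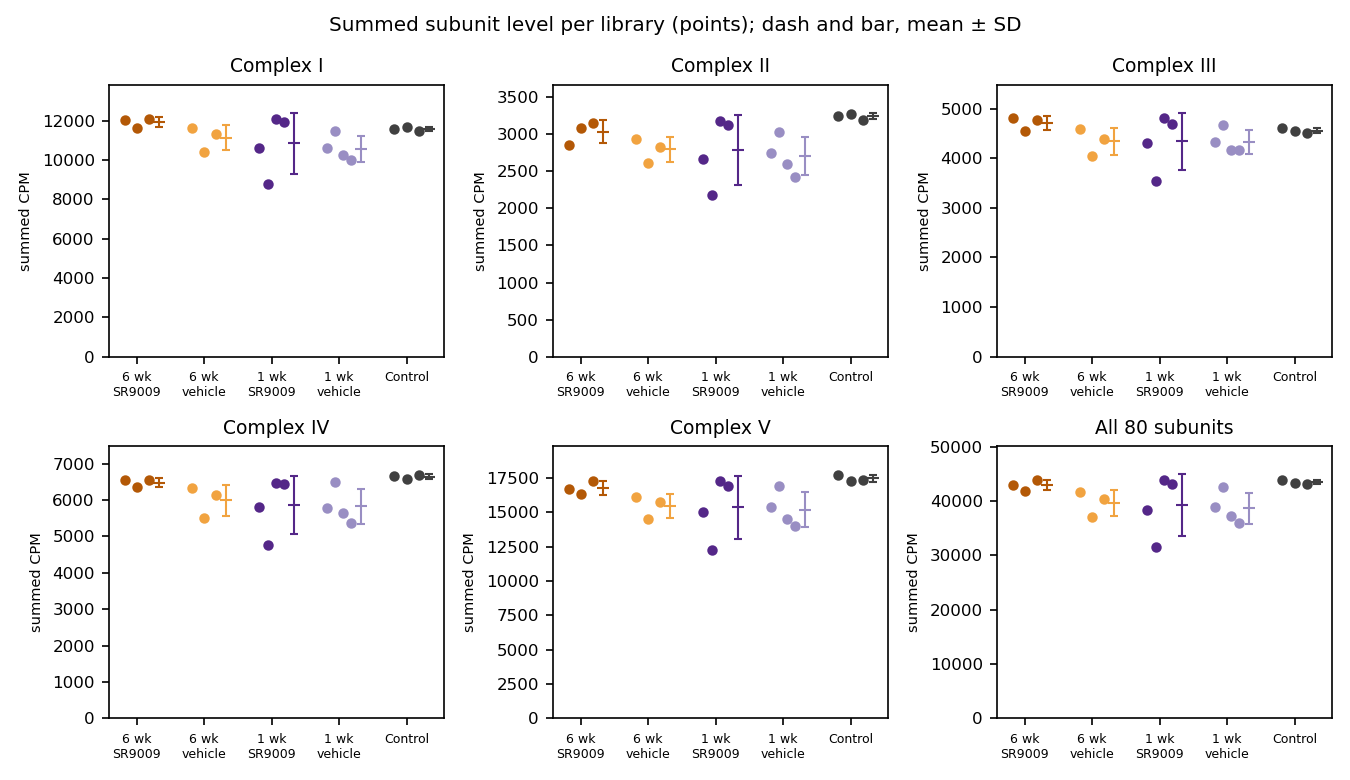
Summed level (CPM) of the subunit genes of each complex and of all 80, with 1 point per library and the mean ± SD beside the points, for the 5 groups along the x axis. For all 80 genes the 4 TAC 1 week vehicle libraries lie at 35974 to 42566 CPM, below the Control libraries at 43229 to 43874 CPM, and TAC 1 week SR9009 libraries spread from 31492 to 43851 CPM.

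By edgeR's quasi-likelihood test with Benjamini-Hochberg adjustment over all genes tested, 5 of the 80 subunit genes passed at 1 week (adjusted p under 0.05), 1 higher and 4 lower. Of all genes tested 14.8% passed, so the share of subunit genes that passed was not above the background. Without adjustment 21 had a p under 0.05, and 20 of these were lower, against 4956 of all 15931 genes, 2273 of them lower. By that criterion too the share of subunit genes was below the background, while that of lower genes was above it. In 26 of the 80 every TAC 1 week vehicle library lay below every Control library, which is 32.5%, against 15.0% of all genes. The subunit genes varied in step between libraries, as described below, so the 26 are not separate observations. These 26 were 12 genes of complex I, 2 of complex II, 1 of complex III, 4 of complex IV and 7 of complex V.

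In complex I the only gene to pass was Ndufv1 (ENSMUSG00000037916.8, chr19:4007384-4012806, minus strand), which encodes the subunit that binds NADH and the flavin. It had 599, 731, 615 and 552 CPM in TAC 1 week vehicle libraries, against 783, 810.1 and 788 CPM in Control libraries. All 4 TAC libraries lay below Control, with TAC 1 week vehicle 2 the nearest. The log2 fold change was -0.35 ± 0.11 (SE; adjusted p = 0.0425, edgeR). In complex II, Sdhc (ENSMUSG00000058076.7, chr1:171127165-171150603, minus strand), a membrane anchor of succinate dehydrogenase, had 336, 382, 319 and 298 CPM in TAC 1 week vehicle libraries, against 426, 425 and 421 CPM in Control libraries. The groups did not overlap, and the log2 fold change was -0.35 ± 0.11 (adjusted p = 0.042, edgeR). The flavoprotein Sdha had a similar log2 difference, -0.35 ± 0.13, but did not pass (adjusted p = 0.07, edgeR). None of the 8 complex III genes and none of the 17 complex V genes passed, with log2 fold changes from -0.15 to -0.01 in complex III and from -0.27 to 0.05 in complex V.

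The largest differences, those of Cox7a1 and Cox8b, were in complex IV and were both lower. The gene that passed as higher, Cox6a1, was also of complex IV. Cox7a1 (ENSMUSG00000074218.2, chr7:30184144-30186078, plus strand), the muscle form of subunit 7a whose promoter is shown above, had 438, 539.9, 419 and 402 CPM in TAC 1 week vehicle libraries, against 670.1, 669 and 684 CPM in Control libraries. Every TAC library lay below every Control library, TAC 1 week vehicle 2 the nearest, and the log2 fold change was -0.58 ± 0.15 (adjusted p = 0.0195, edgeR). Cox8b (ENSMUSG00000025488.8, chr7:140898945-140900446, minus strand), the muscle form of subunit 8, had 308, 346, 290 and 255 CPM in TAC 1 week vehicle libraries, against 397, 407 and 392 CPM in Control libraries. It too did not overlap between groups, and its log2 fold change was -0.41 ± 0.12 (adjusted p = 0.0263, edgeR).

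Cox6a1 (ENSMUSG00000041697.8, chr5:115345642-115348981, minus strand), the widely expressed form of subunit 6a, was the 1 subunit gene that rose. It had 63.0, 52.3, 60.5 and 57.3 CPM in TAC 1 week vehicle libraries, against 47.3, 46.0 and 46.2 CPM in Control libraries. Every TAC library lay above every Control library, and the log2 fold change was 0.33 ± 0.07 (adjusted p = 0.00854, edgeR). Its muscle partner Cox6a2 had 747, 862, 723 and 629 CPM in TAC 1 week vehicle libraries, against 846, 787 and 866 CPM in Control libraries, which overlap, with a log2 difference of -0.17 ± 0.11 that did not pass. The widely expressed Cox7a2 and Cox8a had log2 differences of -0.11 ± 0.09 and 0.12 ± 0.08, and neither passed. Of the other paralogs, Cox4i1 averaged 1100 CPM in TAC 1 week vehicle and 1268 CPM in Control, Cox4i2 7.55 and 6.58 CPM, Cox6b1 564 and 573 CPM, Cox7a2l 204 and 202 CPM, Atp5g1 644 and 686 CPM, Atp5g2 36.2 and 43.5 CPM, and Atp5g3 886 and 944 CPM in the same order, and none passed.

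The 1-week calls were unequally stable. Cox6a1 passed in each of 7 fits that left out 1 library of either group. Cox7a1 and Cox8b passed in 2 of the 7, and Sdhc and Ndufv1 in 1. Thus 1 gene passed without any one of Control 1, 2 or 3 or TAC 1 week vehicle 3 or 4. The count was 3 when TAC 1 week vehicle 1 was left out, and 13 when TAC 1 week vehicle 2 was. The count over all genes moved too: it was 2362 in the full fit and 993 to 1383 in the fits with 1 subunit gene. Without TAC 1 week vehicle 1 it was 1707, and without TAC 1 week vehicle 2 it was 3117. Leaving out the 3 libraries named above together gave 15 genes, 1 higher and 14 lower, when 3117 of all 16013 genes passed. Among them were all 5 of the full fit and Cox7b, Cox6c, Ndufs1, Atp5b and Sdha. Of the 3 libraries only Control 2 belongs to this comparison, and without Control 2 alone 1 gene passed. The others enter only through the model fitted to all libraries together.

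**Figure D2:**
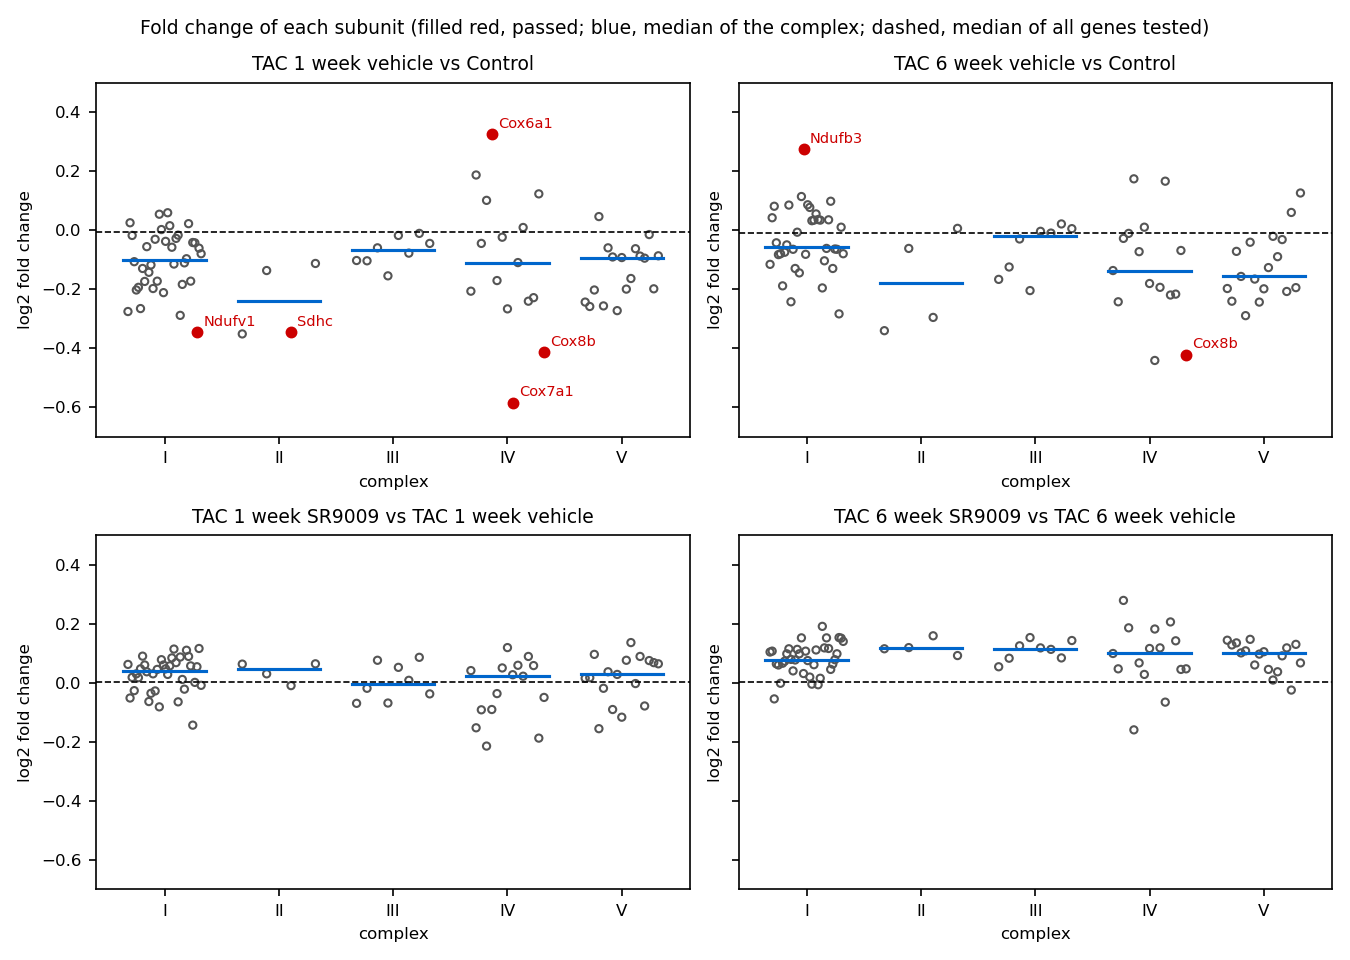
Log2 fold change of each of the 80 subunit genes by complex, in 4 comparisons, with filled red points for genes that passed, a blue line at the median of the complex and a dashed line at the median of all genes tested. The medians of all 5 complexes lie below the dashed line 1 week after TAC, Cox6a1 (0.33) and Cox7a1 (-0.58) mark the extremes there, and no point is filled in the SR9009 comparisons.

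At 6 weeks after TAC the difference from Control was of the same order but less uniform. The summed level of the 80 genes was 41638, 37056 and 40437 CPM in TAC 6 week vehicle libraries, against 43874, 43415 and 43229 CPM in Control libraries. The groups did not overlap, and the TAC library with the highest sum, TAC 6 week vehicle 1, is the one whose clock genes stood apart. Of the 80 fold changes 57 were below 0, with a median of -0.07 against -0.01 for all genes tested. The median rested on single libraries: it was -0.01, with 46 below 0, when library 2 of TAC 6 week vehicle was left out, and -0.10 when library 1 was. By complex, the mean sum was 86.2% of the Control mean for complex II, 88.4% for complex V, 90.2% for complex IV, 95.3% for complex III and 96.1% for complex I. In the same order the median log2 fold changes by gene were -0.178, -0.156, -0.136, -0.019 and -0.055. This comparison and the one at 1 week share the 3 Control libraries.

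By edgeR 2 of the 80 subunit genes passed at 6 weeks, 1 higher and 1 lower, against 20.7% of all genes tested, a share below the background. In 32 of the 80 every TAC 6 week vehicle library lay below every Control library, which is 40.0%, against 19.4% of all genes, and 11 of these 32 were among the 17 genes of complex V. Since the subunit genes varied in step, the 32 are not separate observations. Ndufb3 (ENSMUSG00000026032.8, chr1:58586384-58595964, plus strand), an accessory subunit of the complex I membrane arm, had 164, 155 and 165 CPM in TAC 6 week vehicle libraries, against 134, 134 and 131 CPM in Control libraries. All TAC libraries were higher, with a log2 fold change of 0.28 ± 0.08 (adjusted p = 0.022, edgeR). A pseudogene shares at least 95% identity with Ndufb3 over 282 bases, so its count is uncertain.

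Cox8b had 325, 261 and 306 CPM in TAC 6 week vehicle libraries, below the Control values given above, and its log2 fold change was -0.42 ± 0.12 (adjusted p = 0.0249, edgeR). Cox7a1 had 573, 402 and 514 CPM in TAC 6 week vehicle libraries, also below each Control library, with a log2 difference of -0.44 ± 0.17 that missed the threshold (adjusted p = 0.0694, edgeR). TAC 6 week vehicle 1 was the nearest to Control for both genes. Cox6a1 had 49.9, 53.4 and 54.1 CPM in TAC 6 week vehicle libraries, each above Control, with a log2 difference of 0.17 ± 0.08 that did not pass (adjusted p = 0.12, edgeR).

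The next smallest p-values were those of Ndufa7, a small accessory subunit of complex I, with a log2 difference of -0.24 ± 0.09 (adjusted p = 0.0591, edgeR), and Sdhc, with -0.29 ± 0.12 (adjusted p = 0.0827, edgeR). Cox7a2, Cox8a and Cox6a2 had log2 differences of -0.19 ± 0.10, -0.07 ± 0.09 and -0.07 ± 0.12. Those of Cox8a and Cox6a2 turned positive, at 0.06 and 0.004, with the library total as a covariate, and that of Cox8a also without Control 3, at 0.02. The count was 4 genes without TAC 6 week vehicle 1, against 4062 of all genes. It was 1 (Ndufb3) when TAC 6 week vehicle 2 was the library left out, against 1878 of all genes. It was 0 when that was TAC 6 week vehicle 3 or any Control library, against 1981 to 2396 of all genes. Without the 3 libraries named above it was 14, 1 higher and 13 lower, against 4219 of all 16013 genes. Of the 3, Control 2 and TAC 6 week vehicle 1 belong to this comparison. Cox7a1 was then at -0.57 ± 0.13 (adjusted p = 0.00403, edgeR) and Cox7a2 at -0.28 ± 0.09 (adjusted p = 0.023, edgeR). With the log2 library total as a covariate the count was 0, but depth and group cannot be told apart here.

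Between both times under vehicle, 61 of the 80 genes were higher at 6 weeks than at 1 week, with a median log2 fold change of 0.05, against -0.02 for all genes. Single libraries moved it: it was 0.01 (48 higher) when TAC 6 week vehicle 1 was left out, 0.02 (50 higher) for TAC 1 week vehicle 4, 0.09 (69 higher) for TAC 1 week vehicle 2 and 0.1 (67 higher) for TAC 6 week vehicle 2. Only Ndufb3 passed, of 80, against 12.1% of all genes tested. It had 164, 155 and 165 CPM in TAC 6 week vehicle libraries, against 138, 131, 132 and 133 CPM in TAC 1 week vehicle libraries, which do not overlap. Its log2 fold change was 0.27 ± 0.07 (adjusted p = 0.0249, edgeR), and it passed in 4 of 7 fits that left out 1 library, not without TAC 1 week vehicle 3 or 4 or TAC 6 week vehicle 3. The next in order were Cox4i2 (-0.43 ± 0.18), Atp5d (-0.20 ± 0.09), the delta subunit of the ATP synthase stalk, Cox7a2l (0.16 ± 0.07), a relative of Cox7a2 known for linking complexes III and IV and shortened in C57BL/6 mice, and Cox8a (-0.19 ± 0.08), none of which passed. Cox4i2 was at 4.45 to 7.20 CPM in TAC 6 week vehicle and 6.12 to 8.66 CPM in TAC 1 week vehicle, so it rests on few fragments. It passed without the 3 libraries named above (-0.65 ± 0.18, adjusted p = 0.0153, edgeR).

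**Figure D3:**
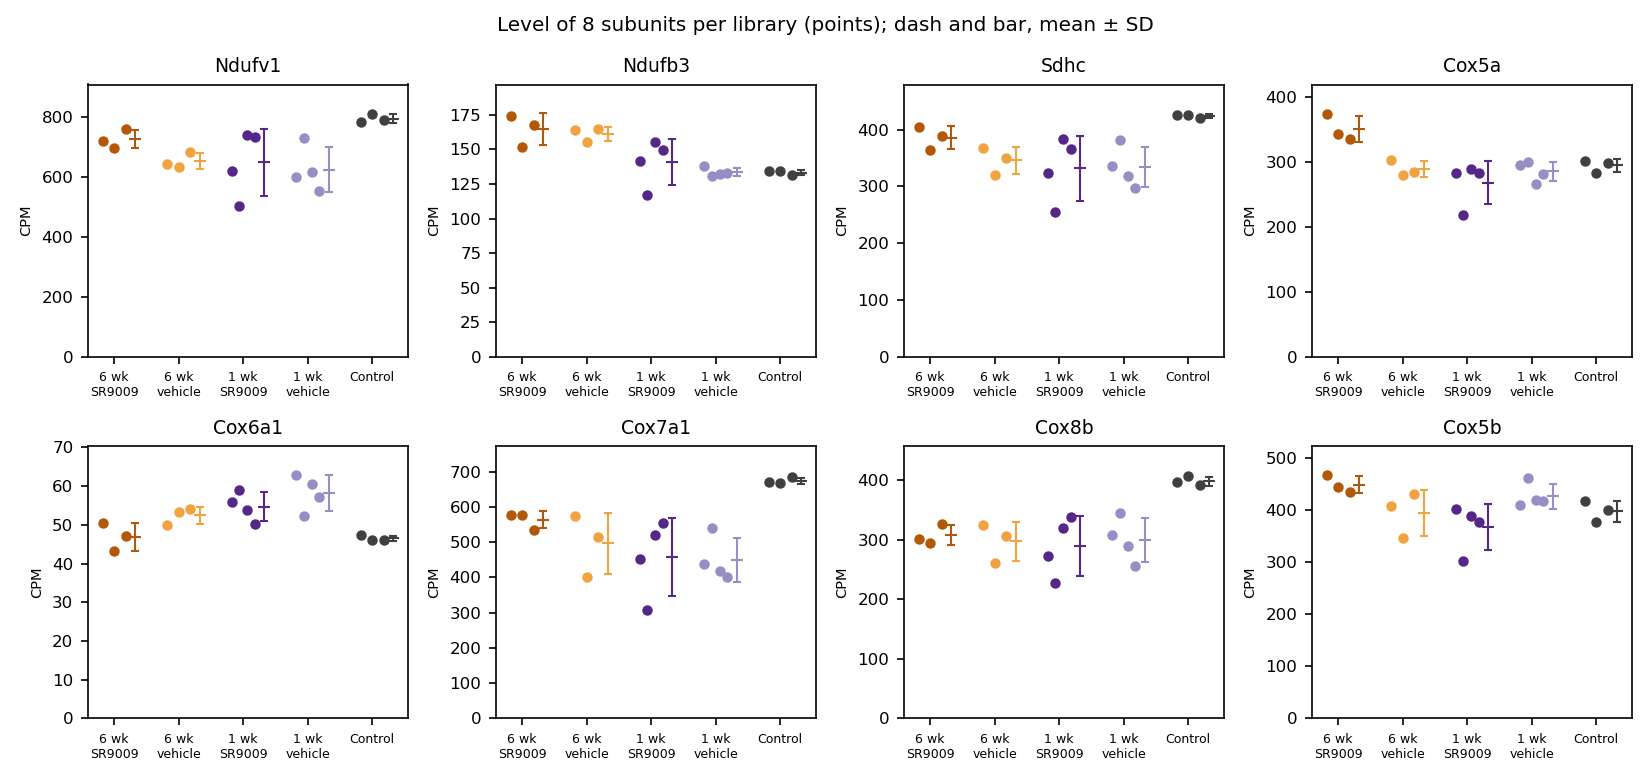
CPM of 8 subunit genes, with 1 point per library and the mean ± SD beside the points, for the 5 groups along the x axis. Cox7a1 lies at 402 to 539.9 CPM in TAC 1 week vehicle and at 669 to 684 CPM in Control, Cox6a1 lies at 52.3 to 63.0 CPM and at 46.0 to 47.3 CPM in the same groups, and Ndufb3 is higher at 6 weeks than at 1 week under vehicle.

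The muscle and widely expressed forms of 3 complex IV subunits were compared as a ratio within each library, which library scaling cannot move. The ratio of Cox7a1 to Cox7a2 fragments was 1.38, 1.60, 1.35 and 1.36 in TAC 1 week vehicle libraries, against 1.93, 2.05 and 1.97 in Control libraries. That of Cox8b to Cox8a was 3.48, 3.86, 3.28 and 3.27 in TAC 1 week vehicle libraries, against 5.23, 5.59 and 4.44 in Control libraries. That of Cox6a2 to Cox6a1 was 11.8, 16.5, 11.9 and 11 in TAC 1 week vehicle libraries, against 17.9, 17.1 and 18.7 in Control libraries. In all 3 pairs every TAC library had less of the muscle form relative to its partner than any Control library. By the deposited FPKM, which was not in step with the fragments, the log2 ratio of Cox7a1 to Cox7a2 differed the other way (0.55), that of Cox6a2 to Cox6a1 by -0.72 and that of Cox8b to Cox8a by -1.12, and the groups overlapped for the pairs other than Cox8b and Cox8a.

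On the log2 scale the mean ratios at 1 week were different from Control by -0.48 for Cox7a1/Cox7a2 and by -0.55 for Cox8b/Cox8a (exact permutation p = 0.0286 each, two-sided, the smallest that 4 against 3 allows) and -0.50 for Cox6a2/Cox6a1 (exact permutation p = 0.0571). In all 12 such tests were made, over 3 pairs and 4 comparisons. After Benjamini-Hochberg adjustment these exact permutation p-values became 0.171, 0.171 and 0.2, so none passed. With smallest exact permutation p-values of 0.0286 or 0.1, no outcome of the 12 tests could have passed after adjustment. They therefore cannot decide whether the ratios differed. At 6 weeks the log2 ratios differed from Control by -0.26, -0.36 and -0.25 in the same order of pairs, again with no overlap. The exact permutation p was 0.1 each, the smallest that 3 against 3 allows, so no such test could pass. The members of the 3 pairs other than Cox6a2 share no exon bases with another gene, and Cox6a2 overlaps Itgad on the opposite strand over 10.3% of its exon bases, and the labels do not say that the libraries keep strand.

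**Figure D4:**
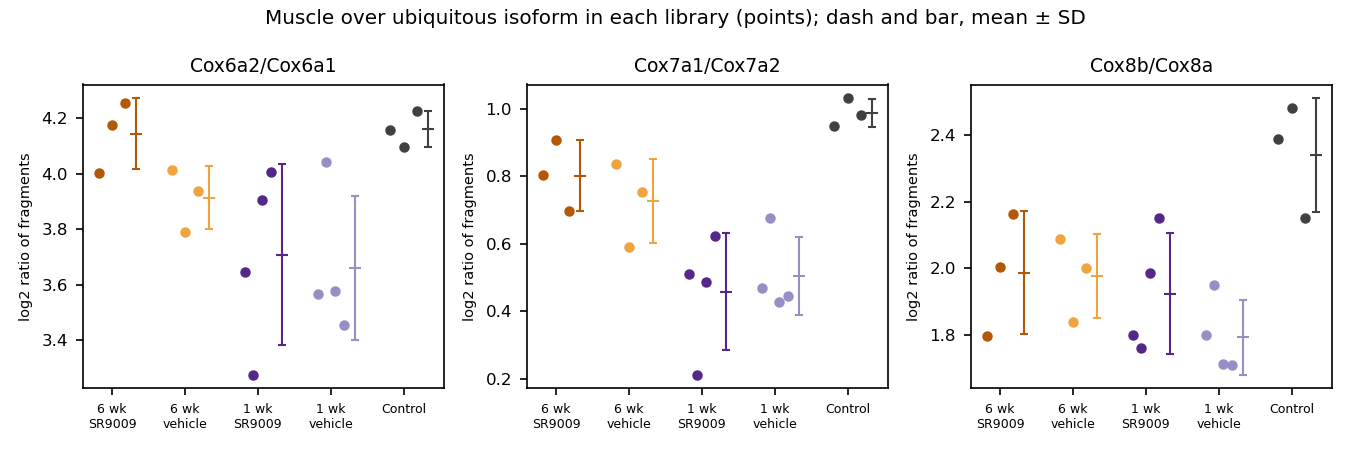
Log2 ratio of the fragments of the muscle form to those of the widely expressed form of 3 complex IV subunits, with 1 point per library and the mean ± SD beside the points, for the 5 groups along the x axis; the y axes do not start at 0. In each pair the vehicle libraries of both times lie below the Control libraries, and the SR9009 libraries overlap the vehicle libraries of the same week.

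With SR9009 for 1 week after TAC, no subunit gene passed against vehicle, as no gene at all did (0.0% of 15931). The summed level was 38430, 31492, 43851 and 43118 CPM in TAC 1 week SR9009 libraries, against 38818, 42566, 37197 and 35974 CPM in TAC 1 week vehicle libraries. SR9009 libraries 3 and 4 lay above each vehicle library and library 2 below each, so the groups overlap. Without adjustment 2 of the 80 genes had a p under 0.05, against 1019 of all genes, and DESeq2 called 0 subunit genes and 13 of all genes. These were Cox5b, a zinc-binding subunit of complex IV, and Cox8a. Cox5b had 402, 302, 389 and 377 CPM in TAC 1 week SR9009 libraries, against 409, 462, 419 and 417 CPM in TAC 1 week vehicle libraries, with no overlap. Its log2 difference was -0.21 ± 0.08 (adjusted p = 0.716, edgeR). Next came Cox8a (-0.19 ± 0.08), Atp5d (-0.16 ± 0.08), Atp5j (0.14 ± 0.07), whose product is the coupling factor of ATP synthase, and Ndufs7 (-0.14 ± 0.08), an iron-sulfur subunit of complex I, and the adjusted p was at least 0.716 for each. The 1-week median over the 80 genes was 0.03, and 0.13 without SR9009 library 2. It was -0.03 without SR9009 library 3, -0.02 without SR9009 library 4 and -0.002 without vehicle library 4, so its direction rested on single libraries.

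With SR9009 for 6 weeks after TAC, the subunit genes were mostly higher than with vehicle, by small amounts, and none passed. The summed level was 42958, 41944 and 43885 CPM in TAC 6 week SR9009 libraries, against 41638, 37056 and 40437 CPM in TAC 6 week vehicle libraries, with no overlap. Of the 80 fold changes 73 were above 0, with a median of 0.10 against 0.002 for all genes tested, and all 8 genes of complex III and all 4 of complex II were above 0. Without TAC 6 week vehicle 2 the median was 0.04, with 65 above 0. No gene of the 80 passed, against 0.169% of all genes tested. DESeq2 called 0 of the 80 and 259 of all 15931 genes. Without adjustment 2 of the 80 had a p under 0.05, against 2498 of all genes. In 22 of the 80 every SR9009 library lay above every vehicle library, which is 27.5%, against 10.6% of all genes. Since the subunit genes varied in step, the 22 are not separate observations. This comparison shares its vehicle libraries with that of 6 weeks against Control.

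The smallest p-value was that of Cox5a (ENSMUSG00000000088.6, chr9:57521274-57532426, plus strand), a matrix-facing subunit of complex IV. It had 373, 343 and 336 CPM in TAC 6 week SR9009 libraries, against 303, 279 and 285 CPM in TAC 6 week vehicle libraries. All SR9009 libraries were higher, and the log2 difference was 0.28 ± 0.09 (adjusted p = 0.148, edgeR). Next came Cox7b (0.21 ± 0.09), a small subunit of complex IV, Cox6a1 (-0.16 ± 0.08), Cox5b (0.19 ± 0.10) and Ndufv2 (0.15 ± 0.09), a subunit of the NADH-binding arm of complex I, with adjusted p-values of 0.27 to 0.428 (edgeR). The Cox6a1 levels were 50.4, 43.2 and 47.1 CPM in TAC 6 week SR9009 libraries, against 49.9, 53.4 and 54.1 CPM in TAC 6 week vehicle libraries, which overlap.

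Marker sums and clock genes moved with this comparison. The 8 cardiomyocyte markers summed to 44723 to 46607 CPM in TAC 6 week SR9009 libraries, against 38663 to 42300 CPM in TAC 6 week vehicle libraries, and macrophage markers to 193 to 215 CPM, against 245 to 281 CPM, neither overlapping. Arntl was at 41.0, 27.5 and 33 CPM in TAC 6 week SR9009 libraries, against 42.8, 3.57 and 2.72 CPM in TAC 6 week vehicle libraries, and the part of these in the subunit differences was not tested. Without the 3 libraries named above, of which 1 enters here (TAC 6 week vehicle 1), 3 subunit genes passed: Cox5a (0.31 ± 0.06, adjusted p = 0.00325, edgeR), Cox7b (0.27 ± 0.07, adjusted p = 0.0209, edgeR) and Ndufv2 (0.22 ± 0.06, adjusted p = 0.025, edgeR). In that setting 2160 of 16013 genes tested passed, a larger share than of the subunit genes, and the 2 vehicle libraries left are the ones with low Arntl. Without TAC 6 week vehicle 1 alone, 0 subunit genes passed, against 1482 of all 16102 genes tested. Another gene shares at least 95% identity with Cox5a over 146 bases and with Cox5b over 390 bases, and Cox5a overlaps Gm26631 on the opposite strand over 12.8% of its exon bases, so their counts are uncertain. The log2 isoform ratios differed between SR9009 and vehicle by 0.08 to 0.23 for Cox7a1/Cox7a2 and Cox6a2/Cox6a1 and by 0.01 for Cox8b/Cox8a at 6 weeks, and by -0.05 to 0.13 at 1 week, with overlap in every case.

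The SR9009 effect at 6 weeks minus that at 1 week was tested in the same fit. None of the 80 genes passed, against 0.119% of all genes tested, and 3 had an unadjusted p under 0.05, against 2264 of all 15931 genes. DESeq2 called 0 of the 80 and 198 of all genes. The 3 were Cox5a (0.37 ± 0.12, adjusted p = 0.169, edgeR), Cox5b (0.40 ± 0.13) and Atp5d (0.26 ± 0.12), followed by Cox8a (0.23 ± 0.12) and Ndufb2 (0.23 ± 0.13). Without the 3 libraries named above Cox5a passed (0.31 ± 0.08, adjusted p = 0.0314, edgeR), as did 1058 of all 16013 genes tested.

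The subunit sum moved together with the cardiomyocyte markers from library to library. The summed level of the 8 markers was 44723 to 46607 CPM in TAC 6 week SR9009, 38663 to 42300 CPM in TAC 6 week vehicle, 30773 to 44767 CPM in TAC 1 week SR9009, 34895 to 42814 CPM in TAC 1 week vehicle and 43158 to 43794 CPM in Control. The ratio of the subunit sum to the marker sum was 0.99 to 1.03 in TAC 1 week vehicle, against 0.999 to 1.00 in Control, so that at 1 week the subunits as a whole were lower by about as much as the markers. It was 0.905 to 0.961 in TAC 6 week SR9009, against 0.956 to 0.99 in TAC 6 week vehicle. The markers are themselves regulated genes. Of the 8, Tnnt2 and Pln fell and Actn2 rose at 1 week, and Ryr2 fell and Mybpc3 rose at 6 weeks against Control. Macrophage markers (Csf1r, Cd68, Adgre1, C1qa and C1qb) summed to 258 to 320 CPM in TAC 1 week vehicle, against 168 to 183 CPM in Control, and fibroblast markers (Dcn, Lum, Pdgfra, Tcf21 and Col1a1) to 932 to 1150 CPM, against 821 to 861 CPM. In TAC 6 week vehicle they summed to 245 to 281 CPM and 1060 to 1420 CPM. Their part in the subunit differences was not tested.

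**Figure D5:**
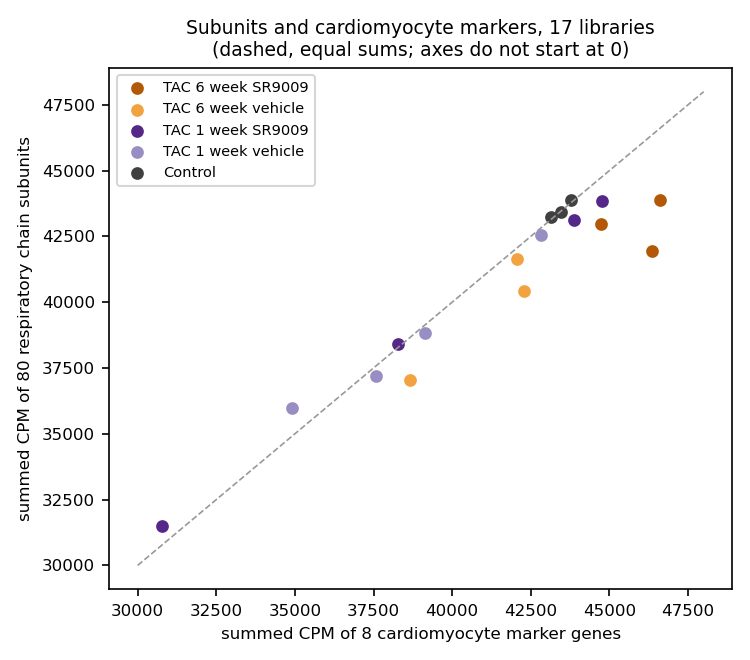
Summed CPM of the 80 subunit genes (y axis) against summed CPM of 8 cardiomyocyte marker genes (x axis), 1 point per library, coloured by group, with a dashed line where both sums are equal. The Control libraries lie at 43229 to 43874 CPM on the y axis and 43158 to 43794 CPM on the x axis, TAC 1 week SR9009 2 lies lowest on both, and the TAC 6 week SR9009 libraries lie to the right of the line.

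Within groups the subunits differed in step. TAC 1 week vehicle 2 was the highest of its 4 libraries for 69 of the 80 genes and TAC 1 week vehicle 4 the lowest for 52. TAC 6 week vehicle 2 was the lowest of its 3 libraries for 77. Cox6a1 did not follow: in TAC 1 week SR9009 it was at 55.8, 59.0, 53.9 and 50.1 CPM in libraries 1 to 4, highest in library 2, where 78 of the 80 genes were lowest. The Control libraries shared no such order, each being the lowest for 21 to 36 genes. No such counts were made over all genes, so the order cannot be called particular to the subunits.

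Genes that build or control the chain were counted from lists of known members. Of 48 assembly factors, which put the complexes together and are not part of them, 1 was higher and 0 lower at 1 week against Control, and 7 were higher and 1 lower at 6 weeks, with a median of 0.07 against -0.01 for all genes. Both counts are below the 14.8% and 20.7% of all genes that passed in these comparisons in either direction. Counting higher genes only, the 7 of 48 at 6 weeks are above the background, with 1705 of all 15931 genes higher. Cox19, which helps deliver copper to complex IV, had 56.7, 55.9 and 60.5 CPM in TAC 6 week vehicle libraries, against 36.2, 33.6 and 34.9 CPM in Control libraries. All TAC libraries were higher. Its log2 fold change was 0.73 ± 0.07 (adjusted p = 1.01e-05, edgeR), and it passed in all 6 fits without 1 library. The others that rose at 6 weeks were Ndufaf2 (0.44 ± 0.13), Sco2 (0.45 ± 0.14), Uqcc3 (0.34 ± 0.09), Timmdc1 (0.29 ± 0.07), Coa3 (0.28 ± 0.08) and Ndufaf1 (0.28 ± 0.08), and Cox15, needed to make the heme of complex IV, fell by 0.21. Of these 7, Timmdc1 also passed in all 6 fits, and each of the others lost its call in 2 to 4 of them. At 6 weeks against 1 week 3 assembly factors were higher, Cox19 (0.47 ± 0.07), Sdhaf4 (0.35 ± 0.10) and Ndufaf1 (0.26 ± 0.07), and 0 lower, against 12.1% of all genes that passed. Cox19 passed in all 7 fits without 1 library, Ndufaf1 in 3 and Sdhaf4 in 2.

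Of 17 regulators of respiratory genes, 0 were higher and 1 lower at 1 week against Control, and 2 were higher and 4 lower at 6 weeks, against 14.8% and 20.7% of all genes that passed. Ppargc1a, the coactivator PGC-1 alpha, had 135, 485 and 459 CPM in TAC 6 week vehicle libraries, against 164, 165 and 156 CPM in Control libraries. TAC 6 week vehicle 2 and 3 were high and TAC 6 week vehicle 1 lay below Control. Its log2 fold change was 1.15 ± 0.30 (adjusted p = 0.012, edgeR), and it did not pass without TAC 6 week vehicle 2 or 3. Tfb2m, a mitochondrial transcription factor, rose by 0.35 ± 0.11. Ppargc1b (-0.46 ± 0.13), Mef2a (-0.34 ± 0.09), Mef2d (-0.50 ± 0.11) and Gabpa (-0.22 ± 0.07) fell. Mef2a and Mef2d passed in all 6 fits without 1 library, Ppargc1b in 3 of them, and Tfb2m and Gabpa in 2 each. Gabpa, whose site is marked in the promoters above, had 97.7, 102, 99.2 and 99.1 CPM in TAC 1 week vehicle libraries, against 109.6, 124 and 118 CPM in Control libraries, with a log2 fold change of -0.24 ± 0.06 at 1 week (adjusted p = 0.017, edgeR), which did not pass without Control 2 or Control 3. At 6 weeks against 1 week Ppargc1a (1.39 ± 0.28), Tfb2m (0.46 ± 0.10) and Tfam (0.20 ± 0.06) were higher and 0 regulators lower, against 12.1% of all genes that passed. Ppargc1a passed in all 7 fits without 1 library, Tfb2m in 6 and Tfam in 1. Ppargc1a had 140.5, 167, 124 and 119 CPM in TAC 1 week vehicle libraries, and TAC 6 week vehicle 1 (135 CPM) lay within that range. Its rise thus rests on TAC 6 week vehicle 2 and 3, the libraries of that group with low Arntl. In the SR9009 comparisons 0 assembly factors and 0 regulators passed. Ppargc1a had 151, 175 and 171 CPM in TAC 6 week SR9009 libraries, below TAC 6 week vehicle 2 and 3 and above TAC 6 week vehicle 1, with a log2 difference of -1.12 ± 0.30 (adjusted p = 0.112, edgeR). With the 3 libraries named above left out it passed at -1.51 (adjusted p = 1.69e-07, edgeR), a comparison that then holds only vehicle libraries with low Arntl.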

How the data were processed

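RNA was sequenced from 17 mouse heart libraries in 5 groups, taken from the treatment labels. The authors deposited 1 table per library with fragments per gene as estimated counts, not normalized, and FPKM, per the file headers; the build is mm10, per the submitters' processing notes, and the sources used here name no aligner or counter. Estimated counts were rounded. The 78 genes that the deposited tables mark as too deep to count were left out. GENCODE vM21 gave symbols for 40252 IDs. Relative to CPM, the deposited FPKM of each of the 80 genes varied over 2-fold between libraries (median 9.58-fold), so FPKM served only as an alternative. edgeR 4.0.16 (R 4.3.3; quasi-likelihood, TMM, filterByExpr) fitted all libraries in 1 model with 15931 genes, 12 residual degrees of freedom and a common dispersion of 0.0106; all 80 subunit genes passed the filter. Isoform ratios, with 0.5 added to each count, were compared by two-sided exact permutation tests. DESeq2 1.42.0, other scalings and filters, left-out libraries, a depth covariate and a replicate block were tried. The fit was tested on simulated data. BLAST 2.17.0 found stretches of at least 95% identity over 100 bases. Genes named were those that passed or, where fewer than 5 did, the 5 smallest p, the paralog sets and each complex's extremes by FPKM; list genes and those named beside left-out libraries were chosen after their values were seen. The members and lists were chosen with earlier results of these data known.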

Additional observations from a re-analysis of the deposited data

Results flagged for a closer look

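Of 70 groups of 4 libraries looked at, 3 held 1 library far from the others, and chance alone picks about 1 in 20. Cox8a was at 78.03 CPM in TAC 1 week vehicle 4, against 88.4 to 89.5 CPM in the other 3 libraries of the group. The log2 ratio of Cox7a1 to Cox7a2 was 0.676 in TAC 1 week vehicle 2, against 0.43 to 0.47 in the other 3. Cox5a was at 218.1 CPM in TAC 1 week SR9009 2, against 282.5 to 288.8 CPM in the other 3, and this library was the lowest of all for 78 of the 80 subunit genes.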

How the results depend on the processing

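The count of subunit genes that passed moved most in the comparisons with Control. At 1 week against Control it was 5, and 2 with a replicate block, 9 by DESeq2, 15 with 3 libraries left out together, and 1 to 13 when 1 library was left out. Of all genes 2362 passed there, 1621 with the block, 2476 by DESeq2, 3117 with the 3 left out, and 993 to 3117 with 1 left out. At 6 weeks against Control the subunit count was 2, and 0 with the library total as covariate, 14 with the 3 libraries left out, and 0 to 4 with 1 library left out. Of all genes 3292 passed there, 4219 with the 3 left out and 1878 to 4062 with 1 left out. At 6 weeks against 1 week the subunit count was 1, and 0 with the covariate, 2 with the 3 libraries left out, and 0 to 2 with 1 left out. Of all genes 1925 passed there, 85 with the covariate, 3343 with the 3 left out and 751 to 2628 with 1 left out. With the 3 libraries left out the subunit count was 3 for SR9009 at 6 weeks and 1 for the difference between weeks, both 0 otherwise. The cause was not tested. With the covariate 235 of all genes passed at 6 weeks against Control, against 3292 without it. Replicate numbers did not pair the libraries: correlations of same-numbered deviations ran from -0.445 to 0.073, and the block changed the count of no other comparison. Values that turned in direction were Cox6a2 (0.004) and Cox8a (0.062) at 6 weeks against Control with the covariate, and Cox8a without Control 3 (0.02), with a range of -0.123 to 0.02 over libraries left out. For SR9009 at 1 week, the Cox6a2/Cox6a1 log2 ratio ran from -0.05 to 0.193 and turned at -0.017, -0.05 and -0.02 with 1 library left out, and Cox7a1/Cox7a2 ran from -0.101 to 0.035, turning at 0.011 and 0.035, and was 0.035 with the 3 libraries left out. For SR9009 at 6 weeks, Cox8b/Cox8a ran from -0.077 to 0.107, turning at -0.057 and -0.077, and was -0.317 by the deposited FPKM. By FPKM Cox7a1/Cox7a2 at 1 week against Control was 0.546. Over the single genes named, 248 leave-one-library values kept direction and call, 34 lost a call, 2 gained one and 1 turned. The 248 are mostly values of genes that passed neither in the full fit nor with a library left out. Of the genes that passed in the full fit, only Cox6a1 at 1 week kept its call throughout. The 34 lost calls fell on the other genes that had passed. The 3-library values for genes outside the subunits were added after seeing the data. The depth of 8474410 to 15498251 fragments limits Cox4i2 and Atp5s most.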

Other observations

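Other genes of mitochondrial energy use were counted beside the subunits. Of 13 genes of the tricarboxylic acid cycle, which feeds the chain with NADH and succinate, 0 were higher and 1 lower at 1 week after TAC against Control, with a median log2 fold change of -0.15, and 0 were higher and 2 lower at 6 weeks, with a median of -0.12. Of all genes 14.8% and 20.7% passed in these comparisons in either direction, with medians of -0.004 and -0.01. Both counts are below these shares. Counting lower genes only, both are above the background, with 943 and 1587 of all 15931 genes lower, but they rest on 1 and 2 genes. Idh3g, a regulatory subunit of isocitrate dehydrogenase, had 318, 359, 296 and 291 CPM in TAC 1 week vehicle libraries, against 432, 422 and 431 CPM in Control libraries. No libraries overlapped, the log2 fold change was -0.44 ± 0.11 (adjusted p = 0.0123, edgeR), and it passed in all 7 fits without 1 library. At 6 weeks Idh3g (-0.33 ± 0.12) and Cs, citrate synthase (-0.31 ± 0.11, adjusted p = 0.0494, edgeR), fell, and each passed in 1 of 6 such fits.

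Of 12 measured genes of coenzyme Q synthesis, Coq2 fell at 1 week (-0.30 ± 0.09, adjusted p = 0.0418, edgeR), with a call in 1 of 7 fits without 1 library, and none passed at 6 weeks. Of 8 subunits, carriers and regulators outside the naming pattern, among them Cyc1, Cycs and Ndufab1, only Atpif1, the inhibitor of the ATP synthase, passed at 1 week. It had 116, 87.8, 98.2 and 124 CPM in TAC 1 week vehicle libraries, against 88.7, 85.5 and 83.5 CPM in Control libraries, with TAC 1 week vehicle 2 within the Control range. Its log2 fold change was 0.31 ± 0.10 (adjusted p = 0.045, edgeR), with a call in 1 of 7 fits. In the SR9009 comparisons none of these genes passed.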
